A study of Mus musculus with 6 samples.

Results

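The genes described here encode calcineurin, the NFAT transcription factors it acts on, and the calcipressins that bind it. They are Ppp3ca, Ppp3cb and Ppp3cc, Ppp3r1, Nfatc1, Nfatc2, Nfatc3 and Nfatc4, and Rcan1 and Rcan2. They were chosen by gene symbol, and all 10 were present among the 23367 entries of the deposited gene table. All 10 also passed the filter on low counts. RNA came from the gastrocnemius, a calf muscle, of wild type FVB mice. There were 6 libraries at 5 stages: E18.5 (embryonic day 18.5, male and female mice pooled), postnatal day 2 (PN2, pooled males), PN14 (replicates 1 and 2, each 1 male), PN28 (1 male) and adult (22 weeks, 1 male). No animal was treated and none carried a transgene, so age was the variable compared. Sex cannot be told apart from age at E18.5, and pooling cannot be told apart from age at E18.5 and PN2.

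Calcineurin is a phosphatase that is switched on by calcium. It is built from a catalytic A subunit (Ppp3ca, Ppp3cb or Ppp3cc) and a calcium-binding B subunit (Ppp3r1). It removes phosphates from NFAT proteins, which then enter the nucleus and act on transcription. In skeletal muscle this route is known for its part in fibre type, and in myoblast fusion and growth. Calcipressins bind calcineurin and can inhibit it, and Rcan1 is itself a known NFAT target, which closes a feedback loop.

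Each library held between 125402932 and 157868359 counts on genes, and the lowest count of any of the 10 genes in any library was 695. FPKM, the level per length of gene and per unit of depth, is given as deposited, and the order of levels is described in FPKM unless TMM is named. Fold changes use TMM normalization, which scales libraries to each other so that most genes do not differ. The TMM factors were 1.45 in both of the earliest libraries and ran from 0.714 (adult) to 1.01 (PN14 replicate 2) in the later ones. Without TMM, the log2 fold change of the median gene was -0.66 from PN2 to PN14 and -1.08 from E18.5 to adult, against -0.012 and -0.054 with it. FPKM carries this shift, so a gene with the same FPKM at PN2 and PN14 was above the median gene in its fold change. A gene is said to have risen or fallen where edgeR's quasi-likelihood test gave an adjusted p under 0.05 (Benjamini-Hochberg, over 16882 genes) and the log2 fold change was at least 1 in size. As PN14 alone had 2 libraries, the test took its spread from that pair for all stages, and each stage was otherwise 1 library on its own lane. The 5 skeletal muscle markers (Acta1, Ckm, Des, Tnnt3 and Myh4) summed to between 21600 FPKM at E18.5 and 92220 at PN28.

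Short exons of the catalytic subunits were a subject of the study, and they are shown here because the deposited values sum all transcripts of a gene, with or without them. Per the study, exon 13 is alternative in Ppp3ca and Ppp3cb and always included in Ppp3cc, and an exon 10a exists in both Ppp3cb and Ppp3cc. In the annotation of mm9 (GENCODE M1), the 30-base exon 13 of Ppp3ca lies at chr3:136594975-136595004 (plus strand), that of Ppp3cb at chr14:21322469-21322498 (minus strand) and that of Ppp3cc at chr14:70619824-70619853 (minus strand). Each is exonic and coding. Exon 10a of Ppp3cc, 27 bases and coding, lies at chr14:70625735-70625761 (minus strand), and that of Ppp3cb is not shown. The sequences are given 5′ to 3′ on the strand of the gene, and the capitals in exon 13 mark the bases that all 3 genes share.
Ppp3ca exon 13: CtActgttGAgGCtattGAGGctgatgAAG
Ppp3cb exon 13: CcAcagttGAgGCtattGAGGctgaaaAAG
Ppp3cc exon 13: CcAaacaaGAaGCcgcaGAGGagcgggAAG
Ppp3cc exon 10a: atcactacatttcaagctgtccaaaag
Exon 13 was identical between Ppp3ca and Ppp3cb at 26 of 30 bases, between Ppp3ca and Ppp3cc at 14 and between Ppp3cb and Ppp3cc at 15. In the annotation it was in 1 of 8 transcripts of Ppp3ca, 2 of 8 of Ppp3cb and 2 of 3 of Ppp3cc. How often the exons were included was not analysed here.

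**Figure D1:**
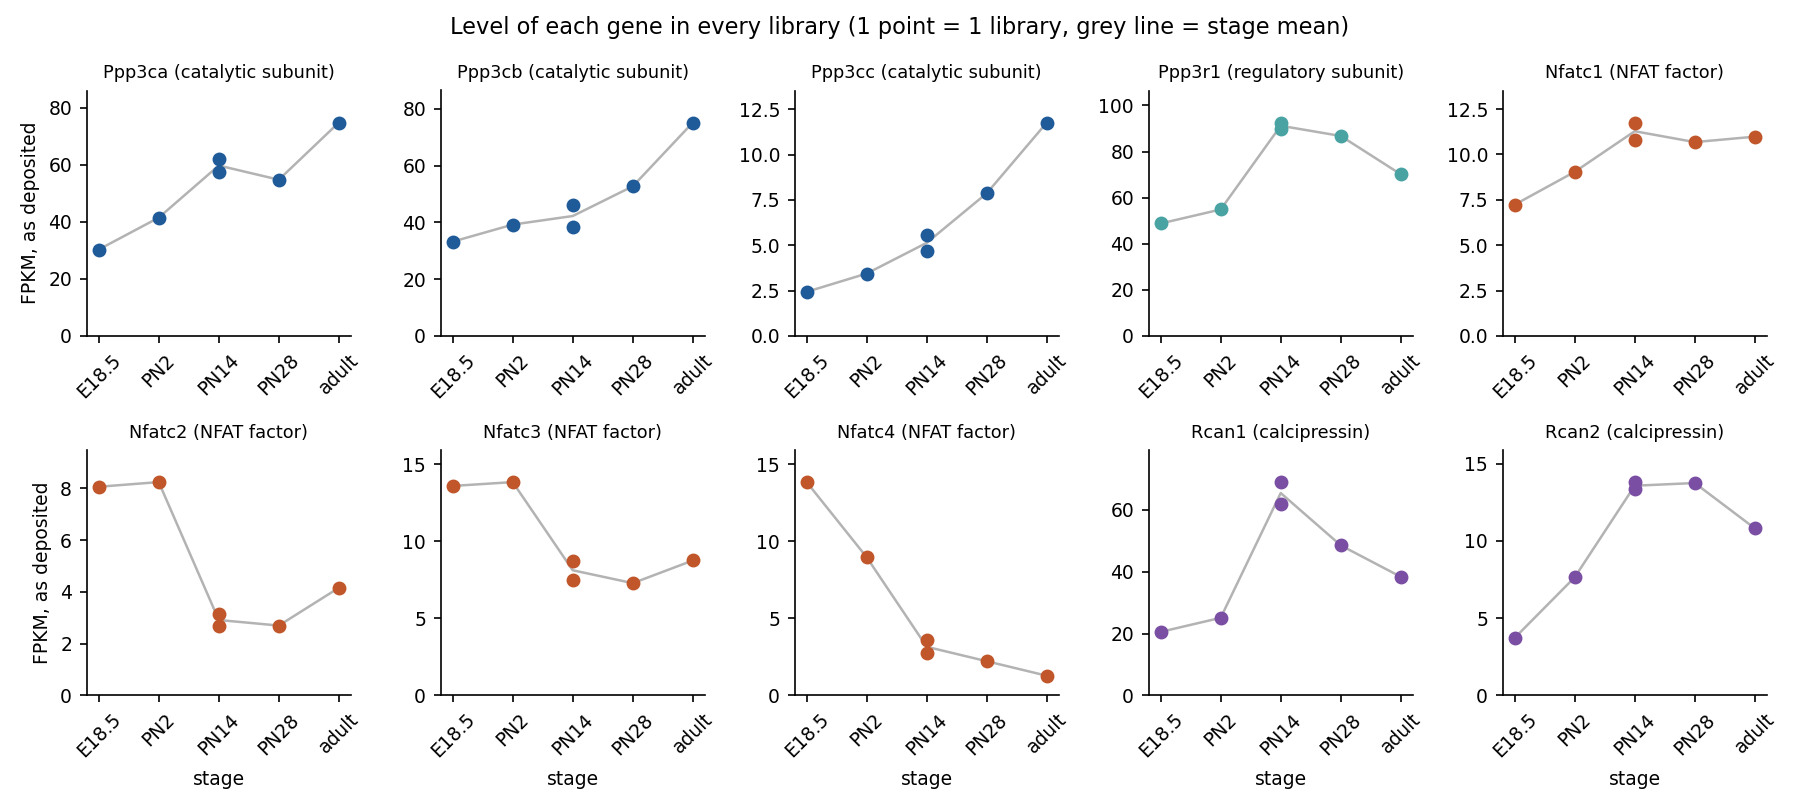
FPKM (y axis, from 0, a scale of its own in each panel) of the 10 genes at the 5 stages (x axis). Each point is 1 library and the grey line joins stage means; the 3 catalytic subunits were highest in the adult, Rcan1 and Ppp3r1 at PN14, and Nfatc4 at E18.5.

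Ppp3ca (chromosome 3 of mm9, 136333088 to 136600691, plus strand), the alpha catalytic subunit, had 30.3 FPKM at E18.5, 41.5 at PN2, 61.9 and 57.6 at PN14, 54.8 at PN28 and 74.8 in adult muscle. Its PN28 level lay just under the PN14 pair (59.7 ± 2.99 FPKM, SD, n = 2 mice), and the pair did not overlap with the 2 earlier libraries. Ppp3ca rose 2.29-fold from PN2 to PN14, or by 1.2 on the log2 scale (with a standard error of 0.256 and an adjusted p of 0.0207 in edgeR). It rose 5.03-fold in all from E18.5 to adult (2.33 on the log2 scale with a standard error of 0.293, and an adjusted p of 0.00224 in edgeR).

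Ppp3cb (chromosome 14, 21318586 to 21365795, minus strand), the beta catalytic subunit, had 33.2 FPKM at E18.5, 39.2 at PN2, 46.0 and 38.5 at PN14, 52.7 at PN28 and 75.2 in adult muscle. The PN2 value lay between the PN14 replicates, so on the FPKM scale these stages did not differ beyond the spread of the pair. With TMM the log2 fold change from PN2 to PN14 was 0.78 and did not pass (with a standard error of 0.309 and an adjusted p of 0.102 in edgeR). Ppp3cb rose from PN2 to PN28 (1.31 on the log2 scale with a standard error of 0.35, and an adjusted p of 0.0359 in edgeR) and 4.61-fold from E18.5 to adult (2.21 on the log2 scale with a standard error of 0.36, and an adjusted p of 0.00449 in edgeR). An antisense transcript, 1810062O18Rik, overlaps the start of Ppp3cb. Whether strand was used in counting is not given in the sources used here, so reads of such a pair may not be told apart.

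Ppp3cc (chromosome 14, 70617705 to 70689257, minus strand), the gamma catalytic subunit, was the least abundant of the catalytic subunits in each library. It had 2.43 FPKM at E18.5, 3.44 at PN2, 5.58 and 4.69 at PN14, 7.87 at PN28 and 11.8 in adult muscle. Each stage was above the one before, and neither PN14 library overlapped with PN2 or PN28. From E18.5 to adult it rose 9.86-fold, more than any other of the 10 genes (log2 fold change 3.30 with a standard error of 0.326, where edgeR gave an adjusted p of 0.00143). It rose 2.38-fold from PN2 to PN14 (1.25 on the log2 scale with a standard error of 0.275, and an adjusted p of 0.0223 in edgeR), and the value was 0.96 without PN14 replicate 1. From PN14 to PN28 its log2 fold change of 0.83 had an adjusted p of 0.538 in edgeR's test.

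Ppp3r1 (chromosome 11, 17059266 to 17100378, plus strand), the calcium-binding B subunit, was the most abundant of the 10 genes at each stage before the adult. It had 48.8 FPKM at E18.5, 54.9 at PN2, 92.6 and 89.8 at PN14, 86.8 at PN28 and 70.1 in adult muscle, where Ppp3ca and Ppp3cb were above it. Its PN14 pair (91.2 ± 2.00 FPKM, SD, n = 2 mice) was the highest point in FPKM. On the TMM scale PN28 was the highest, at 308 CPM against 306 and 248 at PN14, and the log2 fold change from PN14 to PN28 was 0.15, which did not pass (an adjusted p of 0.88 in edgeR). Ppp3r1 rose 2.64-fold from PN2 to PN14 (log2 fold change 1.40 with a standard error of 0.283, where edgeR gave an adjusted p of 0.0180). From PN28 to adult the log2 fold change was -0.17 (with a standard error of 0.306 and an adjusted p of 0.813 in edgeR). Wdr92, a gene on the same strand, overlaps its locus.

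Of the NFAT genes, Nfatc1 is linked to slow-fibre gene expression in muscle. It had 7.23 FPKM at E18.5, 9.04 at PN2, 10.8 and 11.8 at PN14, 10.7 at PN28 and 11 in adult muscle. The libraries from PN14 on lay between 10.7 and 11.8 FPKM, and the adult was between the PN14 replicates. From PN2 to PN14 the log2 fold change was 0.97 (with a standard error of 0.185 and an adjusted p of 0.0154 in edgeR), which passed on p and lay just under the fold threshold. Nfatc1 rose from PN2 to PN28 (1.13 on the log2 scale with a standard error of 0.207, and an adjusted p of 0.0142 in edgeR) and 3.07-fold from E18.5 to adult (1.62 on the log2 scale with a standard error of 0.209, and an adjusted p of 0.00238 in edgeR).

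Nfatc2 (chromosome 2, 168301910 to 168427157, minus strand), linked to the fusion of myoblasts with growing myotubes, had 8.06 FPKM at E18.5, 8.24 at PN2, 3.14 and 2.69 at PN14, 2.70 at PN28 and 4.16 in adult muscle. In FPKM the PN28 value lay between the PN14 replicates, and all the later libraries were below the 2 earliest. The adult was the highest library on the TMM scale, at 33.6 CPM against 31.6 at PN2 and 30.7 at E18.5. From PN2 to PN14 the log2 fold change was -0.75 with TMM and did not pass (with a standard error of 0.242 and an adjusted p of 0.0612 in edgeR). With library size alone it was -1.43 and passed (an adjusted p of 0.000191 in edgeR). Between E18.5 and adult neither scaling passed, with 0.13 under TMM and -0.89 without it on the log2 scale.

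Nfatc3 (chromosome 8, 108582740 to 108654437, plus strand), a member of the family known in early muscle formation, had 13.6 FPKM at E18.5, 13.8 at PN2, 7.49 and 8.74 at PN14, 7.28 at PN28 and 8.75 in adult muscle. The adult matched the higher PN14 replicate in FPKM. On the TMM scale the adult was the highest library, at 73.3 CPM, and PN2 was next at 56.9 CPM. With TMM its log2 fold change from PN2 to PN14 was -0.11 (with a standard error of 0.173 and an adjusted p of 0.639 in edgeR). Over the whole span to adult it was 0.39 with TMM (with a standard error of 0.200 and an adjusted p of 0.145 in edgeR) and -0.63 with library size alone. Esrp2, on the opposite strand, overlaps its end.

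Nfatc4 (chromosome 14, 56443632 to 56452780, plus strand), known as a partner of GATA4 in heart, had 13.8 FPKM at E18.5, 8.96 at PN2, 2.73 and 3.58 at PN14, 2.22 at PN28 and 1.28 in adult muscle. Each stage was below the one before, with no overlap at PN14. It fell by 2.42 on the log2 scale from E18.5 to adult (with a standard error of 0.218 and an adjusted p of 0.00127 in edgeR), and was the only one of the 10 genes that fell in that comparison. It also fell from PN2 to PN28, by 1.11 (with a standard error of 0.209 and an adjusted p of 0.0151 in edgeR). From PN2 to PN14 its log2 fold change of -0.84 passed on p (an adjusted p of 0.0190 in edgeR) and not on size. In bulk tissue, fewer cells of a type and less RNA per cell cannot be told apart.

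Markers of several other cell types were also lower in the later libraries, as Nfatc4 was on both scales and Nfatc2 in FPKM. Between E18.5 and adult the summed level of 5 fibroblast markers went from 4412 to 438 FPKM, and 4 of the 5 fell. The 7 osteoclast markers went from 84.9 to 9.40 FPKM and all 7 fell, while 5 markers of bone and cartilage went from 110 to 0.19 FPKM and all 5 fell, with Ibsp and Bglap at 0 in the adult. The 5 proliferation genes went from 117 to 0.32 FPKM and 3 satellite cell markers from 59.6 to 6.82. From PN28 to adult each of these sums was lower, with that of the fibroblast markers going from 1275 to 438 FPKM. Nfatc2 went from 2.70 to 4.16 FPKM over that interval, and Nfatc4 from 2.22 to 1.28. The part of these cell types in the levels of Nfatc2 and Nfatc4 was not tested. The 5 T cell markers (Cd3d, Cd3e, Cd3g, Cd4 and Lck), another cell type known for NFAT, summed to between 0.14 FPKM in the adult and 1.07 at PN2, and none of them reached 1 FPKM in any library. The 5 macrophage and leukocyte markers summed to between 9.11 and 28.9 FPKM, with the highest value at E18.5, and the 5 endothelial markers to between 62.5 and 230, with the highest in PN14 replicate 2. The 5 Schwann cell markers summed to more in the adult than at E18.5 (156 and 50.2 FPKM), and 2 of the 5 rose. The PN14 replicates differed in this list, which summed to 216 and 857 FPKM. In that pair, with TMM, the 10 genes differed by between -0.52 and 0.13 on the log2 scale, replicate 2 minus replicate 1. With this scaling 9 of the 10 were lower in replicate 2. In FPKM, Nfatc1, Nfatc3, Nfatc4 and Rcan2 were higher in replicate 2 and the others lower. The part of nerve tissue in these differences was not tested.

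Rcan1 (chromosome 16, 92392198 to 92466391, minus strand), calcipressin 1, had 20.6 FPKM at E18.5, 25.1 at PN2, 68.9 and 61.9 at PN14, 48.5 at PN28 and 38.3 in adult muscle. Its peak at PN14 (65.4 ± 5.0 FPKM, SD, n = 2 mice) stood above the other stages in FPKM. On the TMM scale PN28, at 134.3 CPM, lay between the PN14 replicates (177.7 and 133.6 CPM). Rcan1 rose 4.04-fold from PN2 to PN14, the largest of the 10 changes in that interval (log2 fold change 2.02 with a standard error of 0.27, where edgeR gave an adjusted p of 0.00704). It was the only one of the 10 genes to rise there with library size alone as well (1.34, an adjusted p of 0.000352 in edgeR). The lower levels after PN14 did not pass, with log2 fold changes of -0.21 to PN28 and then -0.19 to adult (adjusted p of 0.812 and 0.767 in edgeR). The first of these was 0.0073 without PN14 replicate 1.

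RefSeq gives 2 start sites for Rcan1, and the deposited value sums both. The core letters of the NFAT motif, GGAAA, were searched on both strands in the windows from 250 bases before to 50 after each RefSeq start site of GRCm38.p6. The upstream Rcan1 window held 0 matches and the internal one held 3. A window of Nfatc2 and that of Nfatc4 also held 3, and that of Ppp3cb held 4. Of all 32851 such windows, 61.3% held at least 1 match, 9.42% at least 3 and 2.65% at least 4. RefSeq windows were searched for 7 of the 10 genes, with Nfatc1 left out of the search, and 7 of their 12 windows held a match. A match is a run of letters and does not show a bound site.

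Rcan2 (chromosome 17, 43938800 to 44176465, plus strand), calcipressin 2, had 3.72 FPKM at E18.5, 7.64 at PN2, 13.3 and 13.8 at PN14, 13.7 at PN28 and 10.8 in adult muscle. In FPKM PN28 lay between the PN14 replicates, and the adult was below them. On the TMM scale PN28 (58.0 CPM) was above both PN14 replicates (52.5 and 45.3 CPM), and the adult (50.2 CPM) lay between them. A 7SK gene on the opposite strand lies within the locus. Rcan2 rose 2.81-fold from PN2 to PN14 (log2 fold change 1.49 with a standard error of 0.197, where edgeR gave an adjusted p of 0.00689). Its rise from E18.5 to adult was 5.92-fold (2.57 on the log2 scale with a standard error of 0.225, and an adjusted p of 0.00125 in edgeR). From E18.5 to PN2 it had the largest change of the 10 genes, 1.04 on the log2 scale, which did not pass (with a standard error of 0.215 and an adjusted p of 0.292 in edgeR) and did with edgeR's exact test (adjusted p = 0.0308).

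**Figure D2:**
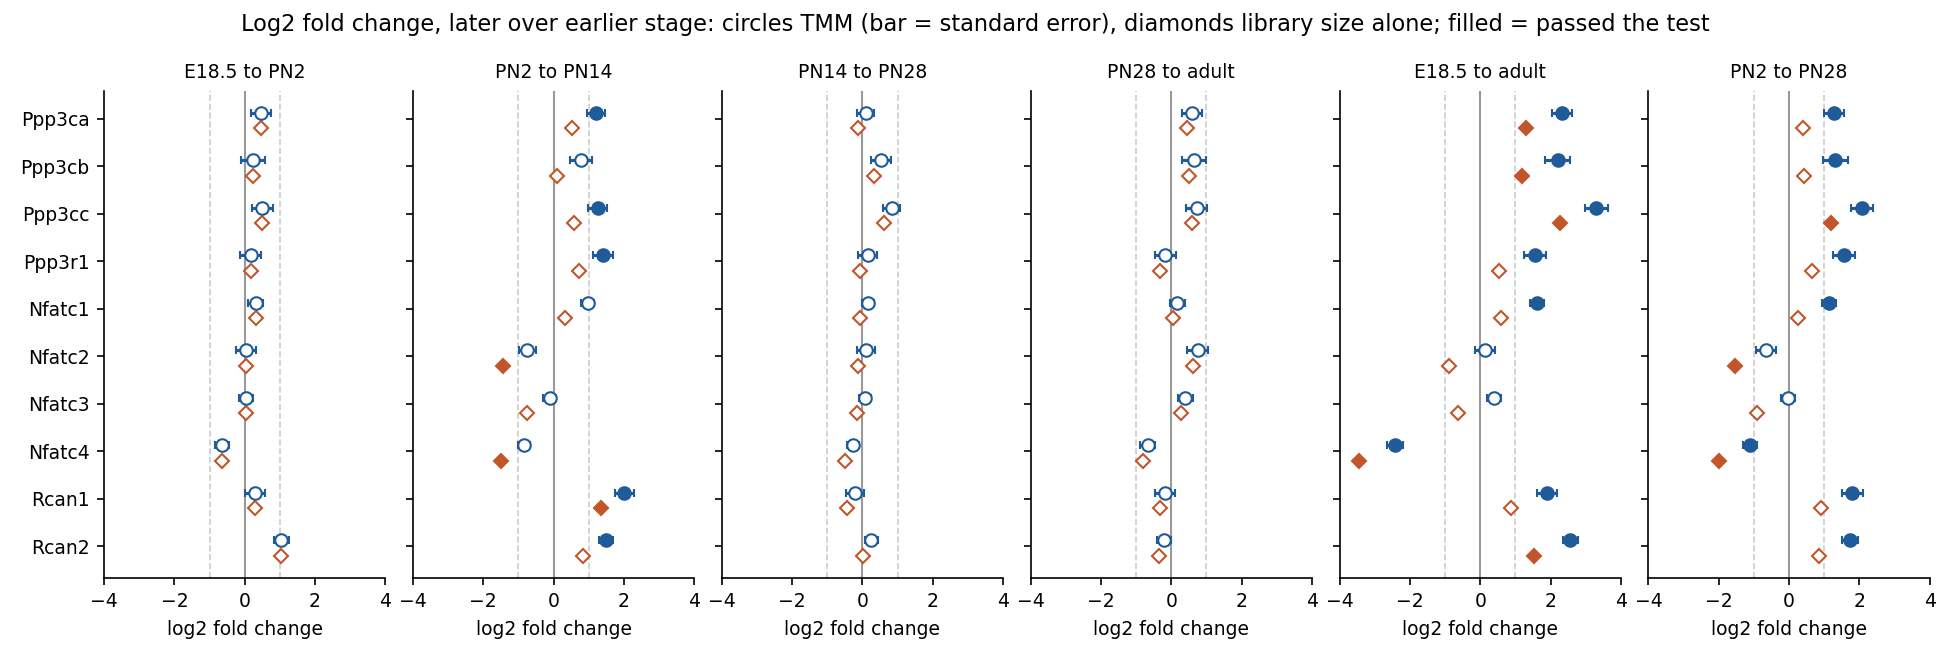
Log2 fold change (x axis, later over earlier stage) of the 10 genes (rows) in 6 comparisons (panels). Circles are TMM values with their standard error, diamonds are values with library size alone, and filled symbols passed the thresholds on p and on size (dashed lines at 1 and -1). With TMM 5 genes rose from PN2 to PN14 and none passed in the other consecutive intervals.

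Set side by side, the calls of these genes sat in 1 interval. From PN2 to PN14, 5 of the 10 genes rose (Ppp3ca, Ppp3cc, Ppp3r1, Rcan1 and Rcan2) and 0 fell, while 23.0% of all genes tested were called there (11.8% higher and 11.2% lower). The median log2 fold change of the 10 was 1.08, against -0.012 over all genes tested. With library size alone, Rcan1 rose and Nfatc2 and Nfatc4 fell. The background was then 5.06% higher and 29.4% lower, and the medians were 0.42 for the 10 genes and -0.66 for all genes. The scaling shifts all genes by about the same amount, so the distance from the median gene hardly depends on it by construction. For Ppp3ca this distance was 1.21 on the log2 scale with TMM and 1.19 with library size alone. It is no check of the calls. The sign of Nfatc2, Nfatc3 and Nfatc4 was negative with both scalings.

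In the other consecutive intervals edgeR's quasi-likelihood test called 0 of the 10. From E18.5 to PN2 the background was 0.0296%, and 2 of the 10 genes, Nfatc4 and Rcan2, had an unadjusted p under 0.05, against 6.64% of all genes tested. There edgeR's exact test called 1, Rcan2, and DESeq2's Wald test 0. From PN14 to PN28 the background was 0.0178% and 1 of the 10 genes, Ppp3cc, had an unadjusted p under 0.05, against 8.41% of all genes tested. From PN28 to adult the background was 0.521%, with 2 of the 10 genes, Nfatc2 and Nfatc4, at an unadjusted p under 0.05, against 18.3% of all genes tested. In both of these intervals the exact test and DESeq2 also called 0. A p that misses the threshold does not show that levels were equal. Counted without a test, on log2 of normalized CPM, 1 of the 10 genes was at least 2-fold apart from E18.5 to PN2 (3.44%). The numbers were 5 from PN2 to PN14 (27.0%), 0 to PN28 (3.30%) and 0 to adult (10.2%). The shares in brackets are of genes with at least 1 normalized CPM in either stage, not of all genes tested.

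From E18.5 to adult, 7 of the 10 genes rose (the 4 calcineurin subunits, Nfatc1, Rcan1 and Rcan2) and Nfatc4 fell, where 44.9% of all genes tested were called (21.4% higher and 23.6% lower). With library size alone 4 rose (Ppp3ca, Ppp3cb, Ppp3cc and Rcan2) and Nfatc4 fell, beside a background of 7.98% higher and 45.6% lower. From PN2 to PN28 the same 8 genes were called in the same directions (background 27.0%, with 14.3% higher and 12.7% lower). With library size alone Ppp3cc rose, and Nfatc2 and Nfatc4 fell (background 5.05% and 37.3%). In each of these wider comparisons 8 genes were at least 2-fold apart without a test. Among genes with at least 1 normalized CPM in either stage the shares were 49.6% and 33.9%. The comparisons share libraries with each other and are not separate evidence.

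**Figure D3:**
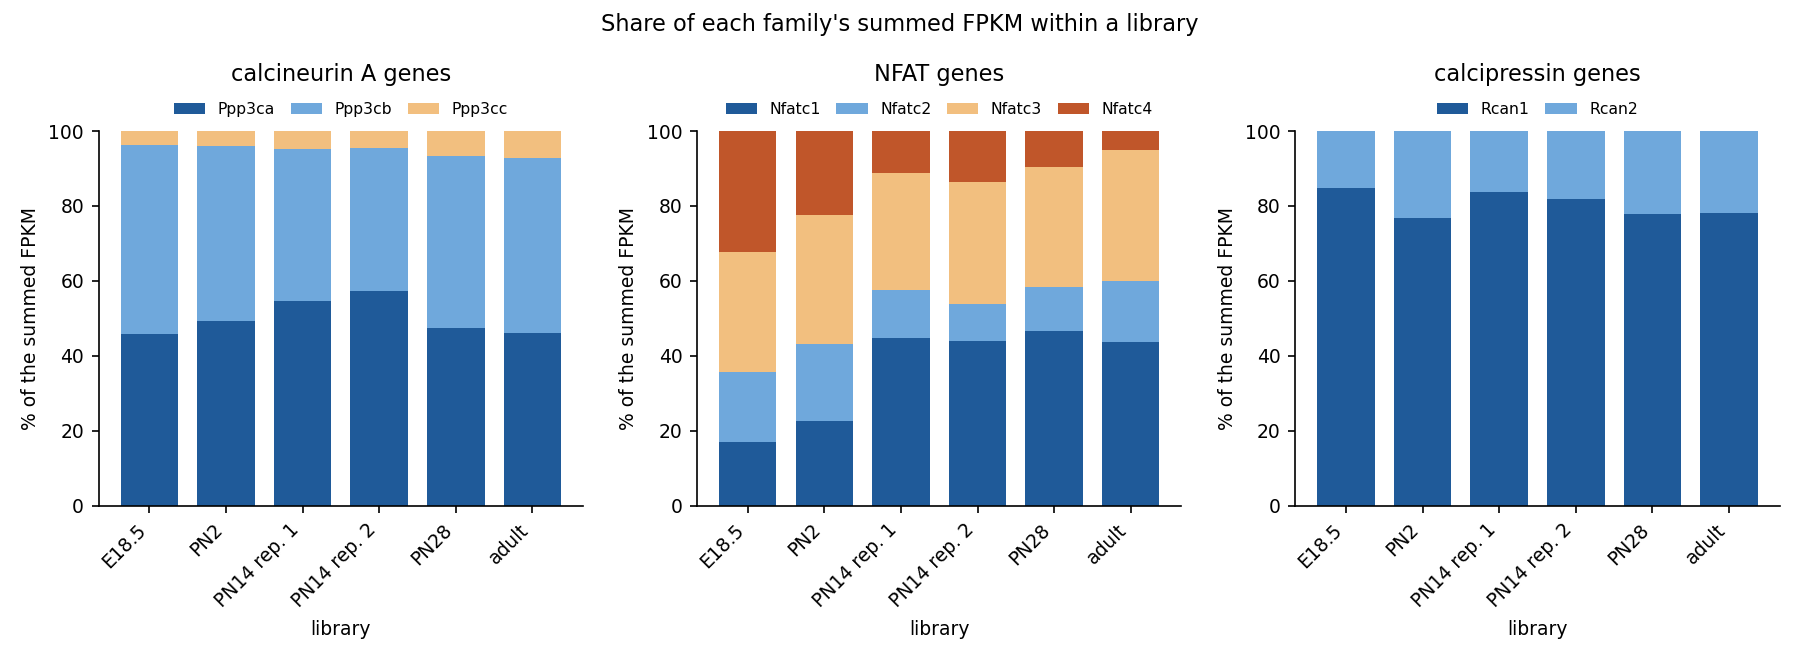
Share (y axis, % of the summed FPKM) of each gene within its family in each of the 6 libraries (x axis). Between E18.5 and adult the share of Nfatc4 went from 32.4% to 5.09% of the NFAT sum and that of Nfatc1 from 16.9% to 43.6%.

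Shares within a library do not depend on the scaling between libraries, and they are given as a description. Of the summed FPKM of the 4 NFAT genes, Nfatc1 took 16.9% at E18.5, 22.6% at PN2, 44.7% and 43.9% at PN14, 46.7% at PN28 and 43.6% in adult muscle. Nfatc4 took 32.4%, 22.4%, 11.3% and 13.4%, 9.70% and 5.09% at the same stages. Nfatc3 held between 31.0% and 34.8% in every library, and Nfatc2 at most 20.6%. At E18.5 Nfatc4 and Nfatc3 were thus the most abundant, and from PN14 on Nfatc1 was.

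Among the catalytic subunits Ppp3cc took 3.69% of the summed FPKM at E18.5, 4.09% at PN2, 4.92% and 4.65% at PN14, 6.82% at PN28 and 7.27% in adult muscle. Ppp3ca had its largest shares at PN14, 54.5% and 57.2%, and between 45.9% and 49.3% at the other stages. Ppp3cb was the larger of the main catalytic genes at E18.5, with a Ppp3ca to Ppp3cb ratio of 0.911, and the ratio was 1.34 and 1.5 at PN14 and 0.995 in the adult. Rcan1 took between 76.7% and 84.7% of the sum of Rcan1 and Rcan2. Rcan3, a further calcipressin, is not in that sum. It had 5.05 FPKM at E18.5 and 1.23 in the adult, and fell by 1.02 on the log2 scale (an adjusted p of 0.0396 in edgeR).

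**Figure D4:**
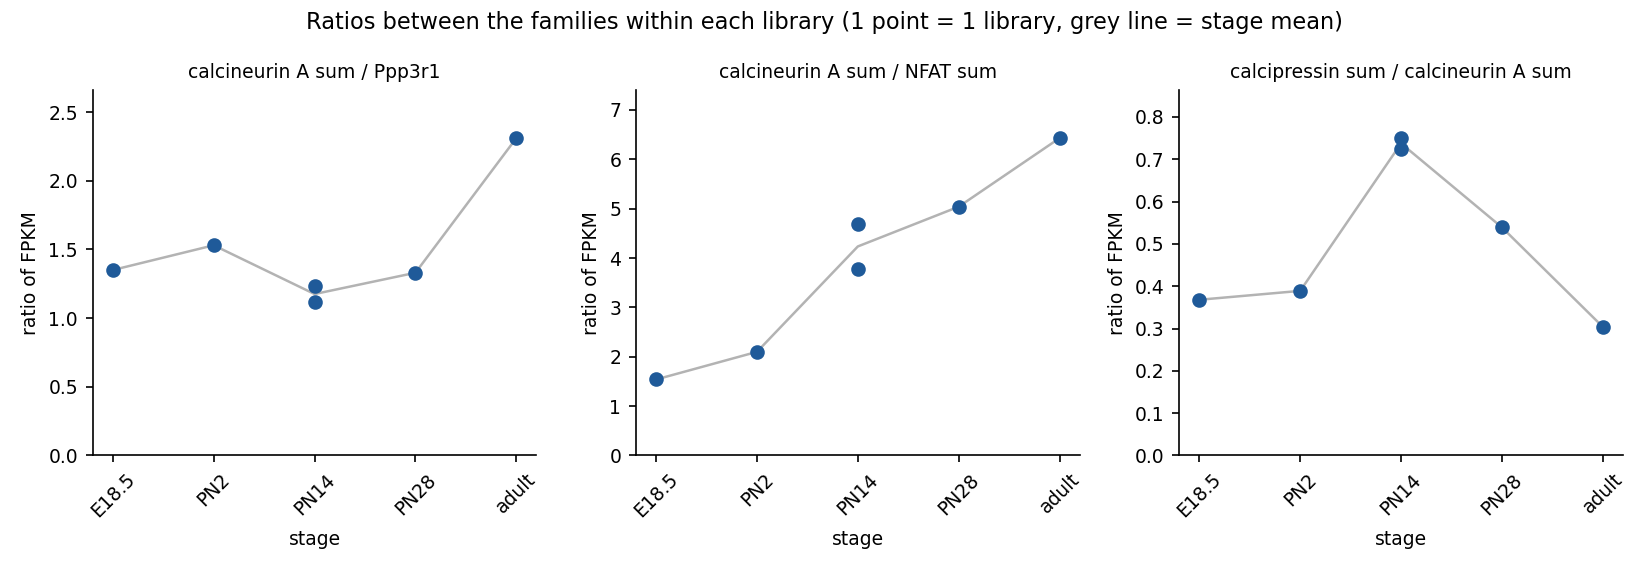
Ratios of FPKM (y axis, from 0) between the families at the 5 stages (x axis), with 1 point per library and the grey line joining stage means. The ratio of calcipressin (Rcan1 and Rcan2) to calcineurin A was highest in the PN14 libraries, at 0.725 and 0.750, and lowest in the adult, at 0.304.

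The balance of the families differed between stages. The summed FPKM of the catalytic genes was 65.9 at E18.5, 84.2 at PN2, 113 and 101 at PN14, 115 at PN28 and 162 in adult muscle. That of the calcipressins Rcan1 and Rcan2, with Rcan3 left out, was 24.3, 32.7, 82.3 and 75.7, 62.2 and 49.1. The calcipressin to catalytic ratio was therefore 0.368 at E18.5, 0.389 at PN2, 0.725 and 0.750 at PN14, 0.539 at PN28 and 0.304 in adult muscle, and the PN14 replicates differed by less than either differed from the other stages.

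The catalytic sum stood at between 1.12 and 1.53 times the FPKM of Ppp3r1 in the 5 younger libraries and at 2.31 times in the adult. Against the NFAT sum it stood at 1.54 at E18.5, 2.10 at PN2, 4.70 and 3.77 at PN14, 5.04 at PN28 and 6.43 in adult muscle. These are ratios of RNA levels per length, each from 1 library.

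**Figure D5:**
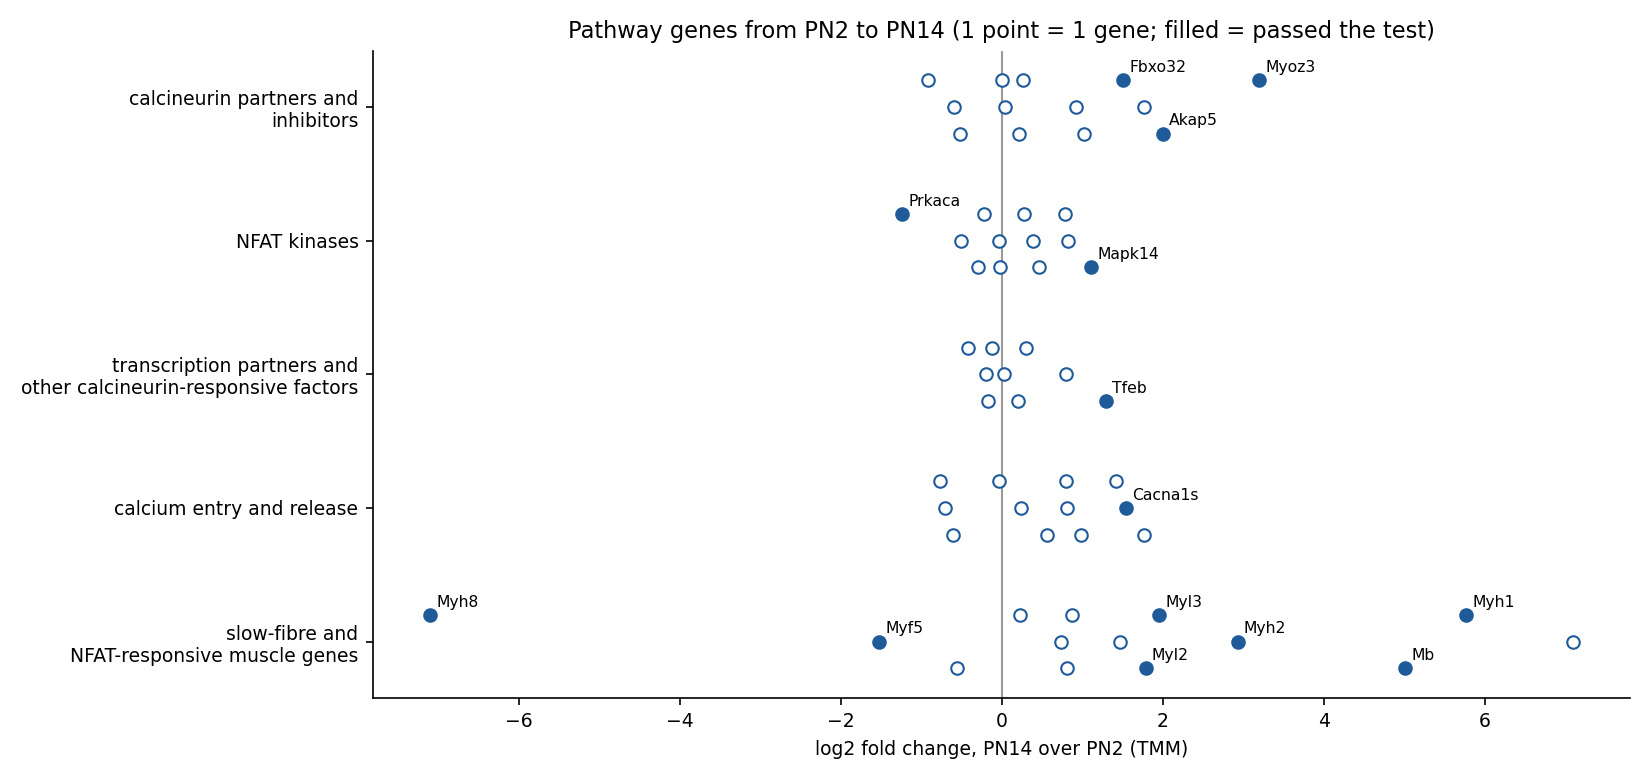
Log2 fold change from PN2 to PN14 (x axis, TMM) of the genes tested in 5 lists of the pathway (rows). Each point is a gene, and filled, named points passed the test, with Myh8 lowest at -7.10 and, among those that passed, Myh1 highest at 5.77.

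The other genes of the pathway were followed in 5 lists. The shares over all genes tested, against which the counts of each list stand, were 23.0% called from PN2 to PN14 (11.8% higher) and 44.9% from E18.5 to adult (21.4% higher). Without TMM the shares called lower were 29.4% and 45.6%. Of 14 partners and inhibitors of calcineurin, 13 were tested from PN2 to PN14, 3 rose and 0 fell. Myoz3, calsarcin 3, a protein that ties calcineurin to the Z-disc, rose most (log2 fold change 3.20 with a standard error of 0.376, where edgeR gave an adjusted p of 0.00572). The others were Akap5, an anchoring protein (2.00), and Fbxo32, a ubiquitin ligase known to act on calcineurin (1.51). With library size alone 3 rose and 3 fell, and the median log2 fold change turned from 0.27 to -0.40. Fbxo32 was then not called. DESeq2's Wald test called 5. Between E18.5 and adult 5 rose and 3 fell, and with library size alone 3 rose and 8 fell. Fbxo32 had 1.90 FPKM at E18.5 and 70.0 in the adult (log2 fold change 6.23, an adjusted p of 0.00123 in edgeR). Myoz2, another calsarcin, went from 252 to 56.3 FPKM and fell by 1.14. Ppp3r2, the other B subunit gene, had at most 8 counts in any library and was not tested.

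Of 12 kinases that phosphorylate NFAT, Mapk14 (p38 alpha) rose from PN2 to PN14 (log2 fold change 1.11) and Prkaca, the catalytic subunit of protein kinase A, fell by 1.24. Without TMM 0 rose and 2 fell, and the call of Mapk14 was lost (0.44, an adjusted p of 0.262 in edgeR). With TMM the other 10 did not pass, among them Gsk3b at 0.28 and Dyrk1a at -0.04. By the adult 6 kinases rose and 1 fell, but with library size alone 0 rose and 1 fell. Of 9 transcription partners and other calcineurin-responsive factors, Tfeb, a regulator of lysosome genes, rose from PN2 to PN14 (1.29, an adjusted p of 0.0143 in edgeR), and the other 8 did not pass. Tfeb was not called with library size alone (0.62, an adjusted p of 0.117 in edgeR), and 0 rose and 1 fell. Between E18.5 and adult 4 of the 9 rose with TMM, while 1 rose and 3 fell with library size alone.

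Of 12 genes of calcium entry and release, Cacna1s, the voltage sensor of the T-tubule, rose from PN2 to PN14 (log2 fold change 1.54, an adjusted p of 0.0492 in edgeR). By DESeq2 2 genes of this list were called. Cacna1s was not called with library size alone (0.86), and Ryr1, the calcium release channel, rose (1.08) while 3 genes fell. Between E18.5 and adult 5 rose and 0 fell, and with library size alone 2 rose and 4 fell. The 15 slow-fibre and NFAT-responsive muscle genes held fast myosins as well as slow ones. Of the 14 tested, 5 rose from PN2 to PN14: Myh1 (5.77, an adjusted p of 0.0114 in edgeR) and Myh2, fast myosin heavy chains, Mb (myoglobin), and Myl2 and Myl3 (myosin light chains of slow muscle). Myh8, the perinatal myosin heavy chain, fell by 7.10, and Myf5, a myogenic factor, also fell. Myh4, the fastest myosin heavy chain, had the highest log2 fold change, 7.09, and did not pass with TMM (an adjusted p of 0.0832 in edgeR). It was called with library size alone (6.42, an adjusted p of 1.06e-62 in edgeR), where 6 of the list rose and 3 fell. The slow genes Tnni1, Tnnc1 and Tnnt1 had log2 fold changes of 0.23, 0.74 and 0.87 that did not pass, and Tnni1 fell by 2.18 from E18.5 to adult. Il4, a cytokine target of Nfatc2, had at most 6 counts in any library and was not tested.

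The genes whose profiles were nearest to those of the 10 were found among 13116 genes with a mean of at least 1 CPM, by the root mean square difference of log2 normalized CPM over the 6 libraries, each gene centred on its own mean. The nearest to Ppp3cc was Trim54, a muscle RING-finger protein, at 0.0416, with 48.8 FPKM at E18.5 and 238 in the adult, and then Cd55 (0.109). For Ppp3ca they were Pik3cd (0.0551) and Kif16b, a kinesin (0.0635), and for Ppp3cb Suox, sulfite oxidase (0.0376), and Prps1 (0.0419). Ppp3r1 was nearest to Gbas (0.0444) and Immt, a protein of the mitochondrial inner membrane (0.0501). Rcan1 was nearest to Mdh2, mitochondrial malate dehydrogenase (0.0417), and Gpr56 (0.0652), and Rcan2 to 6530402F18Rik (0.0695) and Enpep (0.136). Among the NFAT genes, Nfatc1 was nearest to the transporters Slc9a8 (0.0450) and Slc2a8 (0.0479), and Nfatc2 to Tbc1d8 (0.0669) and Ccdc57 (0.115). Nfatc3 was nearest to Prpf6, a splicing factor (0.0262), and Thumpd1 (0.0278). Nfatc4 was nearest to Lepre1, a collagen prolyl hydroxylase (0.0832), and Snai1, a transcription factor of mesenchymal cells (0.0881). These are descriptions over 6 libraries.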

How the data were processed

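Polyadenylated RNA of the gastrocnemius was sequenced in 6 libraries. The submitters' processing notes name mm9, TopHat2 2.0.5 and RSEM. By the study's methods, RSEM assigned fragments to the gene models of RefSeq. The deposited expected counts are not normalized and are whole numbers in the table, and the deposited FPKM values are per length and depth of the library.

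Expected counts were analysed in R 4.3.3 with edgeR 4.0.16 (TMM, filterByExpr by stage, quasi-likelihood test), with all libraries in 1 fit of the 5 stages. The fit had 1 residual degree of freedom, a BCV (biological coefficient of variation) of 0.188 and 4.86 prior degrees of freedom. Standard errors were the log2 fold change divided by the root of F. Counts without a test used log2 of normalized CPM plus 0.1. Alternatives were library size alone, DESeq2's size factors, DESeq2's Wald test (version 1.42.0), edgeR's exact test, no filter, a mean of at least 1 CPM, a pseudocount of 1 and either PN14 replicate left out.

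The text names all 10 genes, the 2 genes nearest in profile to each, and in each pathway list the called genes with the largest and smallest change from PN2 to PN14. 1 gene of the list of calcineurin partners is not reported here. Others were named after their values were seen. The genes and lists were chosen with earlier results of these data known. Coordinates and exons came from GENCODE M1 and the mm9 genome, read with Python 3.11.15 and Biopython 1.88.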

Additional observations from a re-analysis of the deposited data

How the results depend on the processing

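DESeq2's size factors, its Wald test, no filter and the filter on mean CPM left the calls of the 10 genes as they were in all 6 comparisons, each with 60 log2 fold changes compared. The exact test called 1 more, Rcan2 from E18.5 to PN2, so that 1 gene was called there and not 0. Library size alone changed most: 3 genes in place of 5 were called from PN2 to PN14, 5 in place of 8 from E18.5 to adult and 3 in place of 8 from PN2 to PN28. Counted without a test, the genes at least 2-fold apart were 3, 5 and 3 in these comparisons with library size alone, and 0 in place of 1 from E18.5 to PN2 with a pseudocount of 1. With either PN14 replicate left out they ranged from 5 to 7 from PN2 to PN14 and from 0 to 1 from PN14 to PN28 (Ppp3cc, 1.10 on the log2 scale without replicate 1). The log2 fold changes from PN2 to PN14 that crossed 1 in size were those of Ppp3cc (0.96) and Nfatc2 (-1.03) without replicate 1, and Ppp3cb (1.01) and Nfatc1 (1.04) without replicate 2. Signs turned with library size alone for the log2 fold changes from PN14 to PN28 of Ppp3ca (-0.13), Ppp3r1 (-0.072), Nfatc1 (-0.069), Nfatc2 (-0.11) and Nfatc3 (-0.16), and from E18.5 to adult of Nfatc2 (-0.89) and Nfatc3 (-0.63), none of which passed with either scaling. Among the lists, calls in calcineurin partners from PN2 to PN14 went from 3 to 6 with library size alone and to 5 with DESeq2, those in calcium entry and release from PN2 to PN14 went from 1 to 4 with library size alone and to 2 with DESeq2, and those of the NFAT kinases from E18.5 to adult from 7 to 1 with library size alone. Without TMM the log2 fold changes of a comparison shifted by about the same amount, and the spread was estimated again. Adjusted p values therefore changed as well. Myh4 from PN2 to PN14 had a smaller log2 fold change without TMM (6.42, called) than with it (7.09, not called). The part of the shift in the changed calls was not tested. No paired analysis was possible because PN14 alone has 2 libraries, so no 2 stages share 2 replicate numbers. With 1 library per stage elsewhere, p-values rest on the spread of the PN14 pair.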
